A study of Mus musculus with 14 samples.

Results

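The genes described here are 47 mouse genes of the cell cycle and DNA replication. They were listed by their known part in the licensing of replication origins, in S phase, or in G2 and mitosis. The rule that lists them uses no measured value, but it was chosen with earlier results of these data known. The shares set against all genes below are therefore descriptions. All 47 were found by NCBI Gene number among the 27179 genes of the count table. By role, 12 load or fire replication origins, 5 make or handle DNA and its building blocks, 9 are cyclins, cyclin-dependent kinases or their transcription factors, 11 are mitotic kinases and checkpoint or anaphase genes, and 10 build the spindle or the mitotic chromosome. By phase, 22 are G1/S and replication genes and 25 are G2/M genes.

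The RNA came from Tregs (regulatory T cells), a CD4 lineage that depends on the transcription factor Foxp3 and restrains other lymphocytes. Cells were taken straight from the animals and sorted on a yellow fluorescent protein made together with Foxp3. All the mice carried an MC38 tumor in the flank (a colon carcinoma line from mouse) that had reached its endpoint, so there is no spleen from a tumor-free mouse. In each tissue 4 libraries carry the label WT (strain B6.IL23RWT FoxP3Cre-YFP) and 3 the label Flox (strain B6.IL23RFlox FoxP3Cre-YFP). Both strains therefore carry the Cre recombinase driven by Foxp3, and in the Flox strain it is designed to remove Il23r, the specific subunit of the receptor for the cytokine IL-23, from Foxp3-expressing cells. The series states comparisons of Flox with WT within a tissue, and its tumor libraries are tagged TIL, for tumor-infiltrating. The sources used here do not state age, sex, the deleted exons or whether replicates are separate mice, so p-values measure the spread between these libraries, which may be technical.

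A cell that divides first loads the MCM helicase onto origins in G1, with Cdc6 and Cdt1 as loaders and geminin (Gmnn) as their brake. Cyclin E with Cdk2 and the E2F factors then start DNA synthesis, and cyclins A and B with Cdk1 drive the cell into mitosis, where Aurora, Polo-like and Bub kinases control the spindle. Transcripts of these genes rise and fall with the phases, so their bulk level follows how many cells are cycling, and Tregs in inflamed tissue and tumors are known to divide more than most resting lymphocytes.

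The 14 libraries held 4859099 to 10333892 counts, and 13657 to 15312 genes had a count. All 47 genes had at least 1 count in every library, and 41 to 46 of them had at least 10 counts. Il23r itself was nearly silent. It lay between 0.418 and 0.893 CPM (counts scaled by library total and TMM factor) in the Flox-labelled tumor libraries and between 0 and 0.215 CPM in the WT-labelled ones, which goes against the labels, although reads outside the deleted exons would check nothing. In spleen it lay between 0 and 0.754 CPM in Flox-labelled and between 0 and 0.197 CPM in WT-labelled libraries. Y-linked transcripts were present in every Flox-labelled library (Ddx3y at 280.7 to 656.5 CPM) while Xist stayed at 0.502 to 3.34 CPM. The WT-labelled libraries had Xist at 56.7 to 529.4 CPM, and both WT replicate 2 libraries held Ddx3y as well, at 29.2 CPM in spleen and 126.5 CPM in tumor. Sex and the genotype label therefore cannot be told apart in the Flox against WT comparisons. In TIL WT replicate 2 the Y signal rests on Ddx3y. The Y-linked Eif2s3y, Kdm5d and Uty reached at most 0.391, 0.586 and 0.2455 CPM in WT-labelled tumor. In Flox-labelled tumor they were at least 14.76, 3.83 and 30.6 CPM, and in WT-labelled spleen at most 3.36, 2.73 and 2.34 CPM. Treg transcripts were found in all 14 libraries, with Foxp3 at 98.3 to 268.3 CPM.

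Promoters are shown for the genes with the smallest p-values in the 2 genotype comparisons, since these genes lead the results on Flox against WT below. They cover 250 bases before to 50 after the start site in RefSeq (GRCm38.p6), printed 5′ to 3′ on the gene's own strand. Capitals mark 3 motifs searched on both strands: TTTNNCGC (E2F type, the site of G1/S genes), TTTGAA or TTCGAA (CHR type, the element of G2/M genes) and CCAAT (NF-Y type). No 2 of these matches overlap in the windows printed. Dtl lies at chr1:191575495-191575794 (minus strand), Cdk1 at chr10:69352863-69353162 (minus), Hmmr at chr11:40733388-40733687 (minus), Mcm10 at chr2:5012742-5013041 (minus) and Bub1b at chr2:118597961-118598260 (plus).
Dtl: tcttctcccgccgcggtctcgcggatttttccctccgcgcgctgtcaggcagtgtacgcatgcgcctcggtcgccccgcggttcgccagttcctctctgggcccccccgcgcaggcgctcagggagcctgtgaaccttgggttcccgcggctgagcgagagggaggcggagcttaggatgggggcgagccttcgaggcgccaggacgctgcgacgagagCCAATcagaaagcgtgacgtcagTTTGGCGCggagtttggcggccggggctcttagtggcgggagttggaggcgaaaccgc
Cdk1: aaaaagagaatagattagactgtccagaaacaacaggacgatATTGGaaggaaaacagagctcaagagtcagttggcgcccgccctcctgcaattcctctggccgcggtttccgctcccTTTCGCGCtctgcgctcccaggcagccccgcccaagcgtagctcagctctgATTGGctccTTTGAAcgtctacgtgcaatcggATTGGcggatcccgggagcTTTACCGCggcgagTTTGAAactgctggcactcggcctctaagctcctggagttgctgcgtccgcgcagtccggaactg
Hmmr: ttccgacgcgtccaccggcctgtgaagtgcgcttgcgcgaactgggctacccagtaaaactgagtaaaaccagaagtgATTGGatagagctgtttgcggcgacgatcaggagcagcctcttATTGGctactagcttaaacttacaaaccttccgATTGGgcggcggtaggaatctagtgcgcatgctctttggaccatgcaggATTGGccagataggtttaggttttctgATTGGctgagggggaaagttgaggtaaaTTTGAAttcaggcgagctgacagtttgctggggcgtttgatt
Mcm10: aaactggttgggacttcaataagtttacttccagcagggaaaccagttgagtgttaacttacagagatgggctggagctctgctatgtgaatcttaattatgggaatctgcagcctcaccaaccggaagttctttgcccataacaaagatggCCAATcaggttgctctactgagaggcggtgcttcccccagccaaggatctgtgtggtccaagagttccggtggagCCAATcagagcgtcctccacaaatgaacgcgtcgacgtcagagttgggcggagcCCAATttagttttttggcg
Bub1b: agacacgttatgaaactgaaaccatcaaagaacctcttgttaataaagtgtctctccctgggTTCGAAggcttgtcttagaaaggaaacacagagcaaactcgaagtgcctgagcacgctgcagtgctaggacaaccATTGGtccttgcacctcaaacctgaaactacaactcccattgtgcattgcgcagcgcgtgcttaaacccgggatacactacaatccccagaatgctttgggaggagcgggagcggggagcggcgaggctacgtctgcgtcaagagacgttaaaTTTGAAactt

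These 5 windows share the NF-Y type motif and differ in the rest. Dtl holds 1 E2F type match, Cdk1 holds 2 E2F type and 2 CHR type matches, Hmmr holds 1 CHR type match, Bub1b holds 2, and in the Mcm10 window only the NF-Y type was matched. The table gives 39 promoters for 37 of the 47 genes. Gmnn, Mcm4, Foxm1, Ccne2, Ccna2, Aurkb, Pbk, Kif20a, Tpx2 and Stmn1 are not in it. The E2F type was found in 11 of 21 promoters of G1/S genes (52.4%) and in 1 of 18 of G2/M genes (5.56%), against 5.17% of all 32851 promoters. The CHR type showed the reverse, in 3 of 21 G1/S promoters (14.3%) and 14 of 18 G2/M promoters (77.8%), against 19.2% of all. CCAAT was in 79.5% of these promoters and in 37.4% of all. A match is a description of letters and not of binding.

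Single libraries stood far apart within a group for many of these genes. The highest library was at least 10-fold above the lowest for 17 of the 47 genes in WT-labelled spleen, 6 in Flox-labelled spleen, 14 in WT-labelled tumor and 9 in Flox-labelled tumor. Among all genes with a count in every library of the group, that share was 19.3%, 10.9%, 27.6% and 16.5%. Ttk, a spindle checkpoint kinase, is the extreme case. In WT-labelled tumor it read 497.1, 250.7, 1.27 and 1.23 CPM in replicates 1 to 4, and in every other group it stayed at or below 2.30 CPM. Chek1, the kinase that restrains the cycle when replication stalls, read 111.2 CPM in 1 WT-labelled spleen library and 0.986 to 3.01 CPM in the other 3. The heatmap of the 47 genes by library shows these isolated dark cells beside columns that mostly do not stand apart as a whole.

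**Figure D1:**
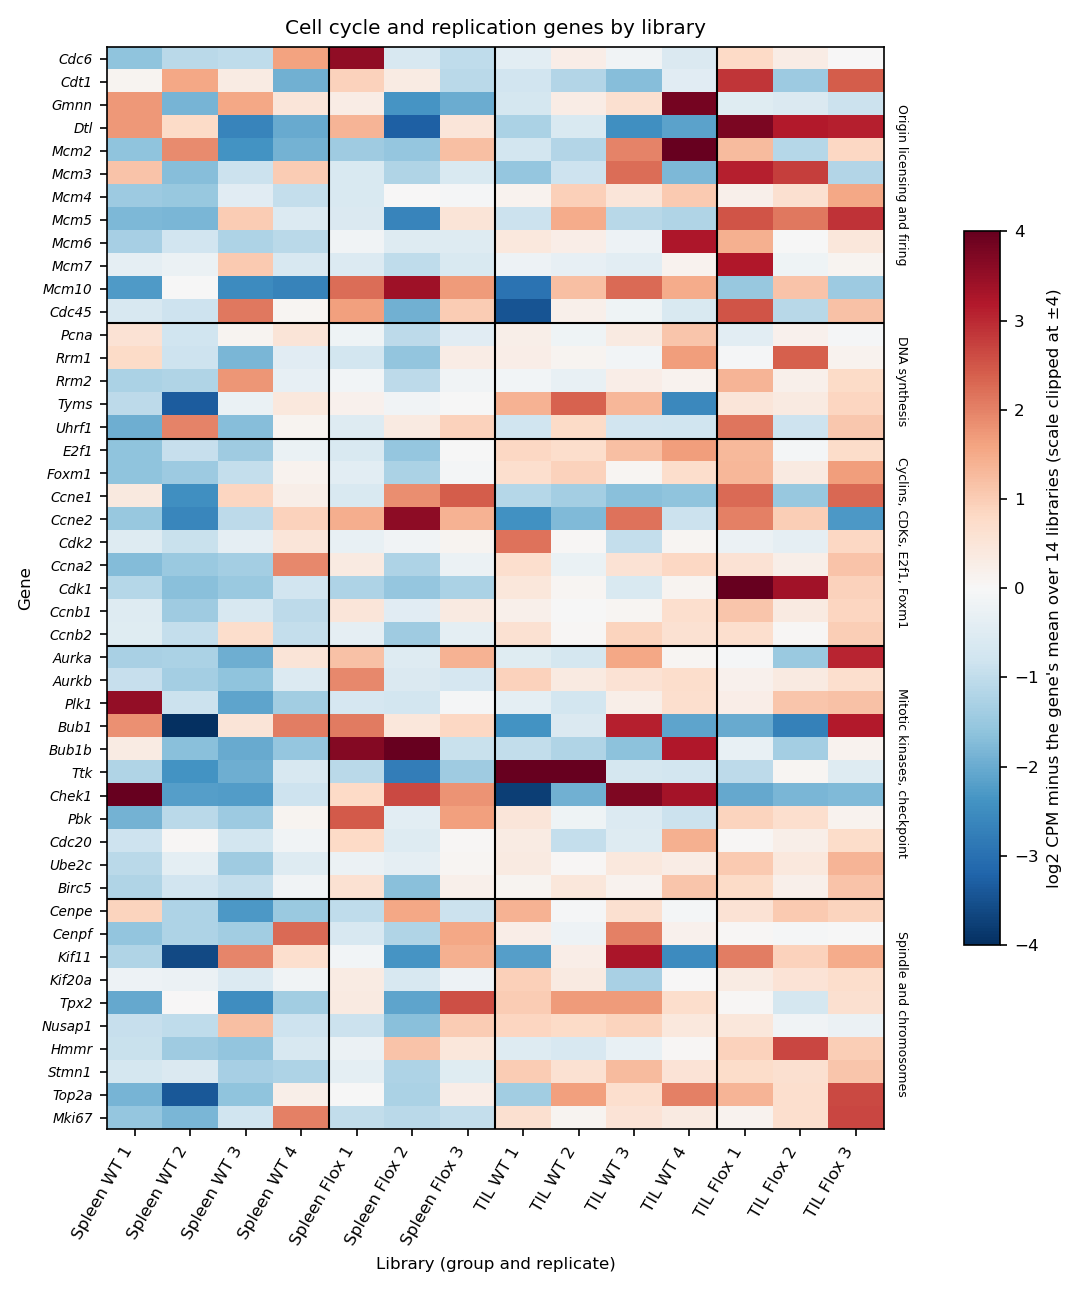
Heatmap of log2 CPM of the 47 genes (rows, by role) in each of the 14 libraries (columns, by group), minus the gene's mean over the 14, with the colour scale ending at 4 on either side. Ttk is high in 2 of the 4 WT-labelled tumor libraries only, Dtl is high in all 3 Flox-labelled tumor libraries, and Stmn1 is above its mean in all 7 tumor libraries.

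Most of these genes had a higher level in tumor Tregs than in spleen Tregs under both labels. Summed over the 47 genes, the level was 652 to 1372 CPM in the 7 spleen libraries (means 973 ± 297 (SD, n = 4) for WT and 1185 ± 171 (SD, n = 3) for Flox) and 1595 to 3817 CPM in the 7 tumor libraries. The lowest tumor library thus lay above the highest spleen library with TMM scaling. In that library, TIL WT replicate 1, Ttk alone made up 31.2% of the sum. The mean log2 CPM over the 47 genes, with the same scaling, overlapped between the tissues. It was 2.31 to 3.71 in spleen and 3.35 to 4.34 in tumor. With library totals alone, an alternative chosen after the data were seen, the sums were 818.4 to 1558 CPM in spleen and 1187 to 3293 CPM in tumor, and 1 tumor library (WT replicate 1) lay below 3 spleen libraries. In bulk RNA, more cycling cells and more RNA of these genes per cell cannot be told apart. By role, the sums of the origin genes were 287 to 432 CPM in spleen and 297 to 1800 CPM in tumor, so that 1 tumor library, WT replicate 1 at 297 CPM, fell inside the spleen range. The sums of the DNA synthesis genes overlapped by 1 library on the spleen side, WT replicate 2 at 203 CPM. Sums of the mitotic kinases and checkpoint genes were 17.8 to 245 CPM in spleen, 173 to 532 CPM in WT-labelled tumor and 38.6 to 268 CPM in Flox-labelled tumor, so the tissues overlapped. A sum is carried by its most abundant members. Ttk alone made up 93.5% and 86.3% of the mitotic kinase and checkpoint sum in TIL WT replicates 1 and 2.

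**Figure D2:**
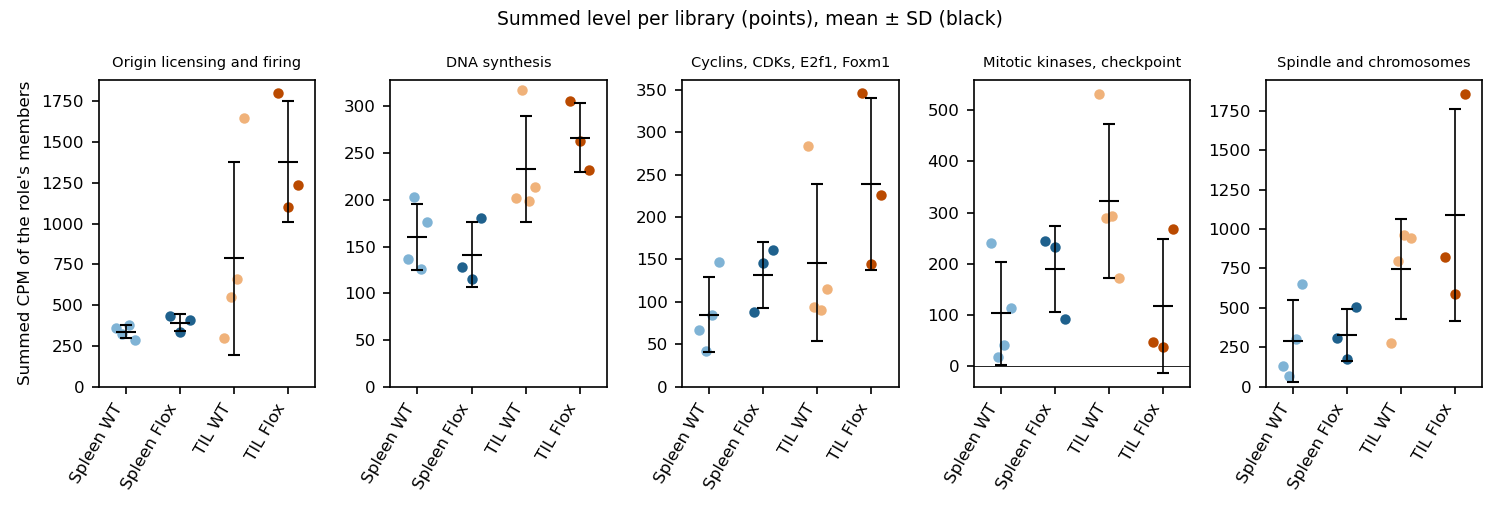
Summed CPM of the members of each of the 5 roles (vertical axes, linear) in the 4 groups, with 1 point per library and the mean ± SD in black. For the origin genes the 3 Flox-labelled tumor libraries lie at 1104 to 1800 CPM above all spleen libraries, while the WT-labelled tumor libraries spread from 297 to 1647 CPM.

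Among WT-labelled libraries, 37 of the 46 genes that could be tested had a higher level in tumor than in spleen, with a median log2 difference of 0.96, against 51.5% of all 10560 genes tested and a median of 0.05. Of the G2/M genes 23 of 24 were higher, with a median of 1.14, and of the G1/S genes 14 of 22, with a median of 0.32. Only 3 genes passed edgeR's quasi-likelihood test at a Benjamini-Hochberg adjusted p of 0.05, all of them higher in tumor, where 7.1% of all genes passed in either direction and 3.9% passed as higher. The tumor and spleen libraries did not overlap for 10 genes, all higher in tumor, against 9.61% of all genes, and none was lower, against 8.35%. At an unadjusted p under 0.05 edgeR gave 14 higher (13.6% of all genes) and 1 lower (13.3%), and DESeq2 called 14 of them (25.8% of all genes), 13 as higher (13.7%) and 1 as lower (12.1%). By each of these rules the share of cell cycle genes called higher was above that of all genes, and the share called lower was under it. Pbk had too few counts for this test.

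The transcription factor E2f1, which switches on S phase genes, was one of the 3. It read 5.47, 5.06, 7.18 and 10.1 CPM in the WT-labelled tumor libraries against 0.819, 1.48, 0.986 and 2.44 CPM in spleen, so every tumor library lay above every spleen library. It rose by 2.29 ± 0.47 on the log2 scale (SE, adjusted p = 0.0247). Its locus overlaps that of Necab3, and reads of the pair could not be told apart, since the sources used here do not state the strand setting.

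Stmn1, which encodes stathmin, a protein that destabilises microtubules, was the second. It read 11.5, 8.71, 13.65 and 8.35 CPM in tumor and 3.38, 3.67, 2.07 and 2.26 CPM in spleen. Stmn1 rose by 1.89 ± 0.39 on the log2 scale (adjusted p = 0.0249, edgeR). Aurkb, the kinase that corrects chromosome attachment, read 5.08, 3.34, 3.94 and 4.30 CPM in tumor and 1.23, 0.858, 0.690 and 1.69 CPM in spleen, again without overlap. It rose by 1.91 ± 0.40 (adjusted p = 0.0253). These 3 calls sit close to the threshold. The call of E2f1 ended without Spleen WT replicate 1, 2 or 3 or TIL WT replicate 4, that of Stmn1 without Spleen WT replicate 1, 3 or 4 or TIL WT replicate 1, and that of Aurkb without Spleen WT replicate 1, 2 or 3 or TIL WT replicate 1, 3 or 4. The adjusted p then reached up to 0.0682, and the log2 difference of the 3 genes stayed between 1.72 and 2.63. All 3 calls also ended with no filter on low counts (adjusted p of 0.0668 for E2f1, 0.0823 for Stmn1 and 0.0880 for Aurkb), with the replicate number as a block (0.0630, 0.0993 and 0.0906) and without both WT replicate 2 libraries (0.0743, 0.0635 and 0.0860). Library totals alone ended the call of Stmn1 (0.0586), and 1 fit of all 14 libraries ended that of Aurkb (0.0557). Calls over all genes fell from 750 to between 373 and 658 with 1 library left out. They fell to 513 with no filter, 173 with the block and 329 without both WT replicate 2 libraries.

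Others of the set had similar or larger differences and did not pass. Ttk had the largest, 8.09 ± 2.10 (adjusted p = 0.0519), and owes it to replicates 1 and 2 of tumor, named above. Tpx2, which nucleates spindle microtubules through Aurora A, read 14.5 to 29.4 CPM in tumor and 1.38 to 8.82 CPM in spleen, with no overlap and a log2 difference of 2.57 ± 0.68 (adjusted p = 0.0554). Without both WT replicate 2 libraries Tpx2 was the 1 gene that passed. For Cdk1, the kinase of mitotic entry, the 4 tumor libraries at 8.21, 6.24, 3.80 and 6.38 CPM all exceeded the 4 spleen libraries at 2.56, 1.72, 1.97 and 3.38 CPM. The difference was 1.35 ± 0.39 (adjusted p = 0.0691). Mcm4, a subunit of the replicative helicase, was 111.8 to 207.8 CPM in tumor and 35.3 to 74.1 CPM in spleen (1.72 ± 0.50, adjusted p = 0.0696), and cyclin B1 (Ccnb1) was 3.34 to 5.401 and 1.09 to 2.25 CPM (1.22 ± 0.37, adjusted p = 0.0822). Birc5, Ube2c and Mcm6 were the remaining genes whose groups did not overlap.

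Better known proliferation markers were not the ones that separated the tissues here. Mki67, which encodes the Ki-67 antigen, read 107.7, 75.0, 102.0 and 89.0 CPM in WT-labelled tumor and 23.6, 19.4, 39.8 and 280.2 CPM in spleen, so 1 spleen library exceeded every tumor library. Its log2 difference was 0.04 ± 0.88 (adjusted p = 0.982) and was 1.75 without Spleen WT replicate 4, which is also the shallowest library. Top2a, the topoisomerase that untangles sister chromatids, read 73.7, 595.8, 307 and 784.9 CPM in tumor and 53.2, 18.1, 62.3 and 228.9 CPM in spleen (2.27 ± 0.92, adjusted p = 0.158). Its only overlap was of tumor replicate 1 with Spleen WT replicate 4. Pcna, the sliding clamp of DNA polymerases, differed by 0.27 ± 0.53 (adjusted p = 0.777) and its libraries overlapped.

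The genes with a lower level in WT-labelled tumor were mostly G1/S genes. Cyclin E1 (Ccne1) read 5.86, 4.95, 3.94 and 4.17 CPM in tumor and 17.2, 2.19, 24.1 and 15.4 CPM in spleen, a log2 difference of -1.63 ± 0.65 (adjusted p = 0.150). The origin loader Cdt1 differed by -1.44 ± 0.70 (adjusted p = 0.223). In both genes 1 spleen library lay below every tumor library and the other 3 above most of them. The remaining origin genes named by rule pointed up, Mcm2 by 2.81 ± 1.54 (adjusted p = 0.277) and Mcm10 by 2.78 ± 1.08 (adjusted p = 0.144). The checkpoint kinase Bub1b differed by 2.34 ± 1.22 (adjusted p = 0.257), and without TIL WT replicate 4 its difference was -0.35.

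The scaling of the libraries bears on the counts of direction. With library totals and no scaling factor, the median of all genes between WT-labelled tumor and spleen moved to -0.39, that of these genes to 0.54, and 30 of 46 were higher (G2/M 19, G1/S 11). Between Flox-labelled tumor and spleen the median of all genes moved to -0.22, and 31 of 46 were higher (G2/M 16, G1/S 15).

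**Figure D3:**
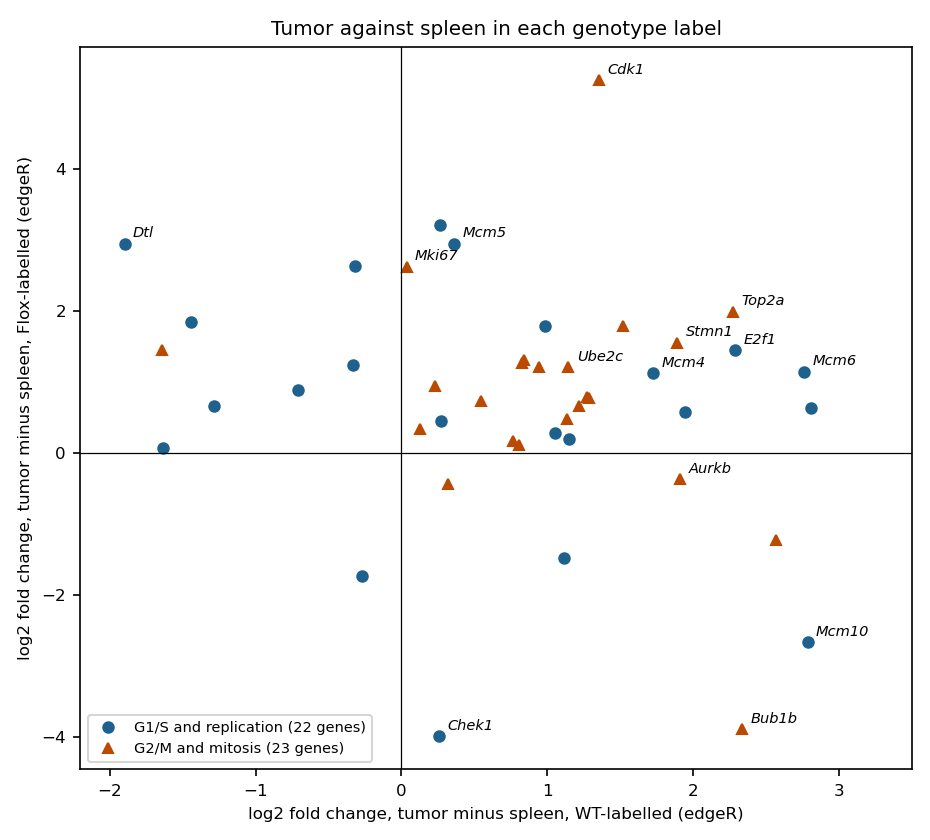
Log2 fold change of tumor minus spleen (edgeR) in WT-labelled libraries (horizontal axis) and in Flox-labelled libraries (vertical axis), 1 point for each of the 45 genes tested in both, with circles for 22 G1/S genes and triangles for 23 G2/M genes. Most points, 29 of 45, lie above 0 on both axes, and only Cdc6 lies below 0 on both.

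Among Flox-labelled libraries, 37 of 46 genes again had a higher level in tumor, with a median log2 difference of 0.78 against 51.4% and 0.04 over all 10760 genes tested. Here both phases took part, with 19 of 24 G2/M genes (median 0.78) and 18 of 22 G1/S genes (median 0.77) higher. In edgeR's test 1 gene passed as higher and 1 as lower, where 7.87% of all genes passed, 4.15% as higher and 3.72% as lower. Libraries did not overlap for 15 genes higher in tumor, against 16.9% of all genes, and for 2 genes lower, against 16.1%. At an unadjusted p under 0.05 edgeR gave 13 higher (13.4% of all genes) and 3 lower (13.7%), and DESeq2 called 15 of them (29% of all genes), 12 as higher (14.6%) and 3 as lower (14.4%). The share of cell cycle genes passing edgeR's adjusted threshold as higher was under that of all genes, and by the other 3 rules it was above. The share called lower was under that of all genes by every one of these rules. Ttk had too few counts for this test.

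Cdk1 was the gene that passed as higher. It read 176.3, 63.6 and 11.5 CPM in Flox-labelled tumor and 2.41, 1.87 and 2.34 CPM in spleen. All 3 tumor libraries were far above the spleen ones and also far apart from each other. Cdk1 rose by 5.25 ± 1.10 on the log2 scale (edgeR, adjusted p = 0.0397). Chek1 went the other way, with 1.15, 1.40 and 1.47 CPM in tumor against 9.62, 35.7 and 19.8 CPM in spleen, and fell by 3.98 ± 0.63 (adjusted p = 0.0222). Leaving out any 1 of the 6 libraries ended the call of Chek1 (adjusted p up to 0.0716), and leaving out any but TIL Flox replicate 3 ended that of Cdk1 (up to 0.121). Calls over all genes fell as well, from 847 with all 6 libraries. Without Spleen Flox replicate 1, 2 or 3 that count was 1, 0 and 0. Without TIL Flox replicate 1, 2 or 3 it was 154, 472 and 102. With all 14 libraries in 1 fit, which shares the spread with the WT-labelled groups, Chek1 had an adjusted p of 0.233. The replicate number as a block ended both calls (0.123 for Cdk1 and 0.0776 for Chek1), and no filter on low counts ended that of Cdk1 (0.0516). Over all genes the block left 1 call and no filter left 457.

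Mki67 and Top2a did separate the tissues under this label. Mki67 read 76.6, 110.6 and 446.1 CPM in tumor and 34.8, 32.6 and 35.7 CPM in spleen (2.62 ± 0.77, adjusted p = 0.0908). Top2a read 492.7, 308.1 and 1208 CPM in tumor and 192.5, 80.0 and 233.4 CPM in spleen (1.99 ± 0.65, adjusted p = 0.115). Neither passed. The highest library of both was tumor replicate 3, and without it the log2 difference of Mki67 was 1.503 and that of Top2a 1.31.

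Of the helicase genes, Mcm5 was 333.7, 250.9 and 433.3 CPM in tumor and 39.3, 9.20 and 83.7 CPM in spleen (2.95 ± 0.83, adjusted p = 0.0800), and Mcm3 differed by 3.21 ± 1.03 (adjusted p = 0.109) with 1 tumor library inside the spleen range. Stmn1 read 9.41, 8.80 and 12.3 CPM in tumor and 4.21, 2.24 and 3.94 CPM in spleen (1.55 ± 0.43, adjusted p = 0.0797). Foxm1, the transcription factor of G2/M genes, differed by 1.79 ± 0.55 (adjusted p = 0.101), and the mitotic kinase Plk1 by 1.44 ± 0.45 (adjusted p = 0.103). For both, no tumor library overlapped a spleen library. Mcm10, which helps the helicase to open origins, was lower in tumor at 3.55, 23.7 and 3.72 CPM than in spleen at 50.8, 114.4 and 35.6 CPM (-2.66 ± 0.99, adjusted p = 0.147).

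The other genes named by rule spread widely in this comparison. Bub1b differed by -3.88 ± 1.27 (adjusted p = 0.114), Pbk, a mitotic kinase, by -1.09 ± 0.75 (adjusted p = 0.395) and Pcna by 0.45 ± 0.50 (adjusted p = 0.597). E2f1 differed by 1.45 ± 0.60 (adjusted p = 0.180), Ccnb1 by 0.66 ± 0.44 (adjusted p = 0.382) and Cdt1 by 1.85 ± 1.09 (adjusted p = 0.325). Mcm2 differed by 0.63 ± 0.99 (adjusted p = 0.713) and Ccne1 by 0.07 ± 1.11 (adjusted p = 0.976).

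The 2 tissue comparisons share no library. Of the 45 genes tested in both, 29 had a higher level in tumor in both and 1, Cdc6, a lower level in both, and over all 10263 genes tested in both the counts were 3594 and 3305. For 5 of these 45 genes (Mcm4, Mcm6, Cdk1, Ube2c and Stmn1) the tumor and spleen libraries did not overlap under either label. Of all 10263 genes tested in both, 704 (6.86%) did so with tumor higher. The 5 are 50% of the 10 without overlap in WT and 33.3% of the 15 in Flox. Over all genes the 704 stand beside 1015 without overlap and higher in tumor in WT and 1818 in Flox. Across all 14 libraries every tumor library lay above every spleen library for Cdk1, Mcm4 and Stmn1, 3 of 47, where 5.2% of all genes behaved so. None of the 47 lay wholly below, against 2.65% of all genes. For Mcm4 the gap was narrow, from 101.8 CPM in the highest spleen library to 111.8 CPM in the lowest tumor library. With library totals alone only Stmn1 kept this separation (2.30 to 4.70 CPM in spleen, 6.77 to 12.8 CPM in tumor), since 1 tumor library of Mcm4 (83.2 CPM) lay below the highest spleen library (112.9 CPM), and 1 of Cdk1 (3.55 CPM) below its highest (3.70 CPM).

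**Figure D4:**
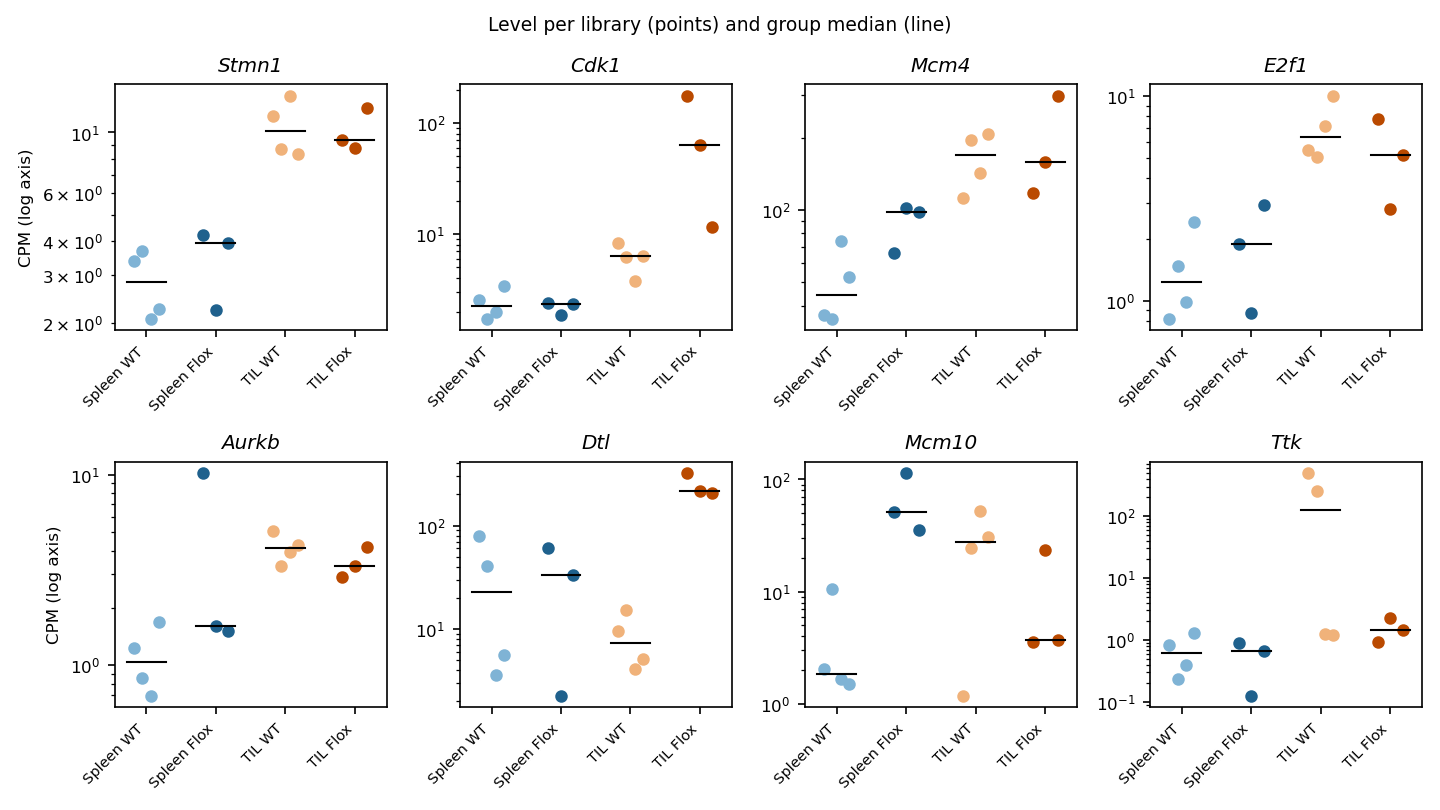
CPM (logarithmic axes) of 8 of the genes in each library of the 4 groups, with points for libraries and a line for the group median. With this TMM scaling Stmn1, Cdk1 and Mcm4 are higher in all 7 tumor libraries than in any of the 7 spleen libraries, which holds for Stmn1 alone with library totals, Dtl is at 206.3 CPM or more in the 3 Flox-labelled tumor libraries, Mcm10 at 35.6 CPM or more in the 3 Flox-labelled spleen libraries, and Ttk is high in 2 WT-labelled tumor libraries.

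Transcripts of other cells moved between the tissues as well. The 8 B cell genes summed to 234 to 1719 CPM in the spleen libraries and 1.66 to 99.6 CPM in the tumor libraries, and Pax5 was at 0 in all 7 tumor libraries. All 6 that could be tested were lower in tumor under each label. In edgeR's test 3 of them passed in WT-labelled libraries (3.2% of all genes passed as lower) and 6 in Flox-labelled ones (3.72%). The 10 macrophage genes summed to 7.59 to 250 CPM in spleen and 12.8 to 167 CPM in tumor, and the tissues overlapped. The highest sum of each tissue was in WT replicate 2, where Adgre1 made up 77.6% (spleen) and 85.9% (tumor). In Flox-labelled libraries all 7 tested were higher in tumor, with a median log2 difference of 1.68, and 1 passed. In WT-labelled ones 3 of 8 tested were higher, with a median of -0.90, and 0 passed. The 6 stroma genes summed to 55.3 to 164.1 CPM in spleen and 36.0 to 287.7 CPM in tumor, most of it Pecam1 in 12 of the 14 libraries, while Col3a1 was 0 to 0.702 CPM in spleen and 5.59 to 93.2 CPM in tumor. Of the 8 carcinoma markers Krt8, Krt18, Krt19, Krt20 and Cldn7 were at or near 0 in all 14 libraries, with 0.502 CPM as the highest, and Cdh1 was too except for 17.94 CPM in 1 Flox-labelled spleen library. Epcam was 3.75 to 23.4 CPM in spleen and 0.391 to 3.94 CPM in tumor, and the list's sum of 1.37 to 774 CPM was mostly Lgals4, at 298.5 to 745.9 CPM in spleen and 0.977 to 705.3 CPM in tumor. The 6 Treg genes summed to 2270 to 3825 CPM in spleen and 4729 to 9196 CPM in tumor. Ikzf2, Il2ra and Ctla4 carried this difference, and each was higher in every tumor library than in any spleen library. Foxp3 was 102.9 to 268.3 CPM in spleen and 98.3 to 231.3 CPM in tumor, and Cd3e and Cd4 overlapped as well. The 2 erythroid genes summed to 23.8 to 245 CPM in spleen and 0 to 11.3 CPM in tumor. For the 7 germinal centre and plasma cell genes the sums were 31.5 to 129 and 17.98 to 39.3 CPM. Among them Jchain was 5.93 to 24.3 CPM in spleen and 0 to 0.2455 CPM in tumor, and Xbp1 6.81 to 15.8 and 15.4 to 31.5 CPM. The 4 CD8 T cell and NK cell genes summed to 2.985 to 36.7 CPM in spleen and 1.97 to 8.57 CPM in tumor. The part of other cells in the levels of the cell cycle genes was not tested.

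Within the tumor, no cell cycle gene passed the test between the labels. On simulated data only 2% of 16-fold changes were recovered in this comparison, so a gene that did not pass may still differ. In the Flox-labelled libraries 30 of 47 genes had a higher level and 17 a lower one, with a median log2 difference of 0.25, against 46.8% higher and a median of -0.06 over all 10777 genes tested. With edgeR 0 of 47 and 0% of all genes passed, and adjusted p ran from 0.320 to 0.999. At an unadjusted p under 0.05 there were 7 higher, against 5% of all genes, and 3 lower, against 3.08%. DESeq2 called 7 of them (3.91% of all genes), 5 higher (2.16% of all genes) and 2 lower (1.75%), and limma voom called 0. The libraries of the 2 labels did not overlap for 5 genes higher in Flox (2.47% of all genes) and 1 lower (2.52%). The share of cell cycle genes without overlap was thus above that of all genes for the higher direction and near it for the lower one.

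Dtl showed the clearest difference. It encodes the substrate receptor of the ubiquitin ligase that destroys Cdt1 during S phase. Dtl read 323.1, 215.2 and 206.3 CPM in the Flox-labelled tumor libraries and 9.58, 15.3, 4.08 and 5.16 CPM in the WT-labelled ones. The 3 Flox values are close together and far above all 4 WT values, with a log2 difference of 4.85 ± 0.71 (edgeR, adjusted p = 0.320). DESeq2 gave an adjusted p of 8.38e-13. The Dtl locus overlaps Ints7, which differed by -1.88 ± 1.52 in the same comparison.

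Cdk1 and Hmmr followed. Cdk1 read 176.3, 63.6 and 11.5 CPM in Flox-labelled tumor and 3.80 to 8.21 CPM in WT-labelled tumor, a log2 difference of 3.77 ± 0.91 (edgeR, adjusted p = 0.584). Hmmr, a spindle protein and hyaluronan receptor, read 8.78, 30.2 and 9.13 CPM against 3.13, 2.80, 3.66 and 4.66 CPM (2.17 ± 0.56, adjusted p = 0.584). In both genes the Flox-labelled libraries all lay higher, and 1 library (replicate 1 for Cdk1, replicate 2 for Hmmr) was several-fold above the other two.

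Other G1/S genes were also higher, Mcm5 in all 3 Flox-labelled libraries and Ccne1 and Cdt1 in 2 of them. Mcm5 read 333.7, 250.9 and 433.3 CPM against 31.9, 161.8, 27.2 and 25.4 CPM (2.44 ± 0.83, adjusted p = 0.584), without overlap. Ccne1 read 64.0, 4.46 and 64.5 CPM against 3.94 to 5.86 CPM (3.20 ± 0.84, adjusted p = 0.584), and Cdt1 158.2, 7.65 and 115.1 CPM against 6.47 to 15.6 CPM (3.08 ± 0.95, adjusted p = 0.584). In both, Flox replicate 2 stood inside the WT range. Ube2c, which passes ubiquitin to the anaphase-promoting complex, was 9.30, 5.99 and 11.6 CPM against 4.52 to 5.91 CPM, the fifth gene without overlap.

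The genes with lower values were led by kinases and a spindle factor. Tpx2 was the gene whose Flox-labelled libraries (9.09, 5.36 and 13.9 CPM) all lay under the WT-labelled ones (17.98, 29.4, 29.4 and 14.5 CPM), with a log2 difference of -1.31 ± 0.54 (edgeR, adjusted p = 0.584). Ttk differed by -6.87 ± 2.40 (adjusted p = 0.584) and rests on the 2 high WT-labelled libraries. Chek1 read 1.15, 1.40 and 1.47 CPM in Flox and 0.195, 1.29, 75.3 and 57.3 CPM in WT (-4.67 ± 1.86, adjusted p = 0.584). The Flox-labelled libraries of Chek1 lie inside the WT range, which has 2 high and 2 low libraries.

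The genes most used to mark proliferation differed by less in tumor, and none passed. The log2 difference was 1.15 ± 0.71 for Mki67 (edgeR, adjusted p = 0.633), 0.59 ± 0.81 for Top2a (adjusted p = 0.862) and -0.53 ± 0.56 for Pcna (adjusted p = 0.799). Without TIL Flox replicate 3 that of Mki67 was 0.02, that of Top2a -0.12, and the median over the 47 genes also 0.02. The remaining genes named by rule were Ccnb1 at 0.57 ± 0.34 (adjusted p = 0.631), Pbk at 0.89 ± 0.49 (adjusted p = 0.604) and E2f1 at -0.42 ± 0.46 (adjusted p = 0.810). Mcm2 was at -2.36 ± 1.53 (adjusted p = 0.649), Mcm10 at -1.41 ± 1.21 (adjusted p = 0.745) and Bub1b at -1.79 ± 1.34 (adjusted p = 0.698).

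**Figure D5:**
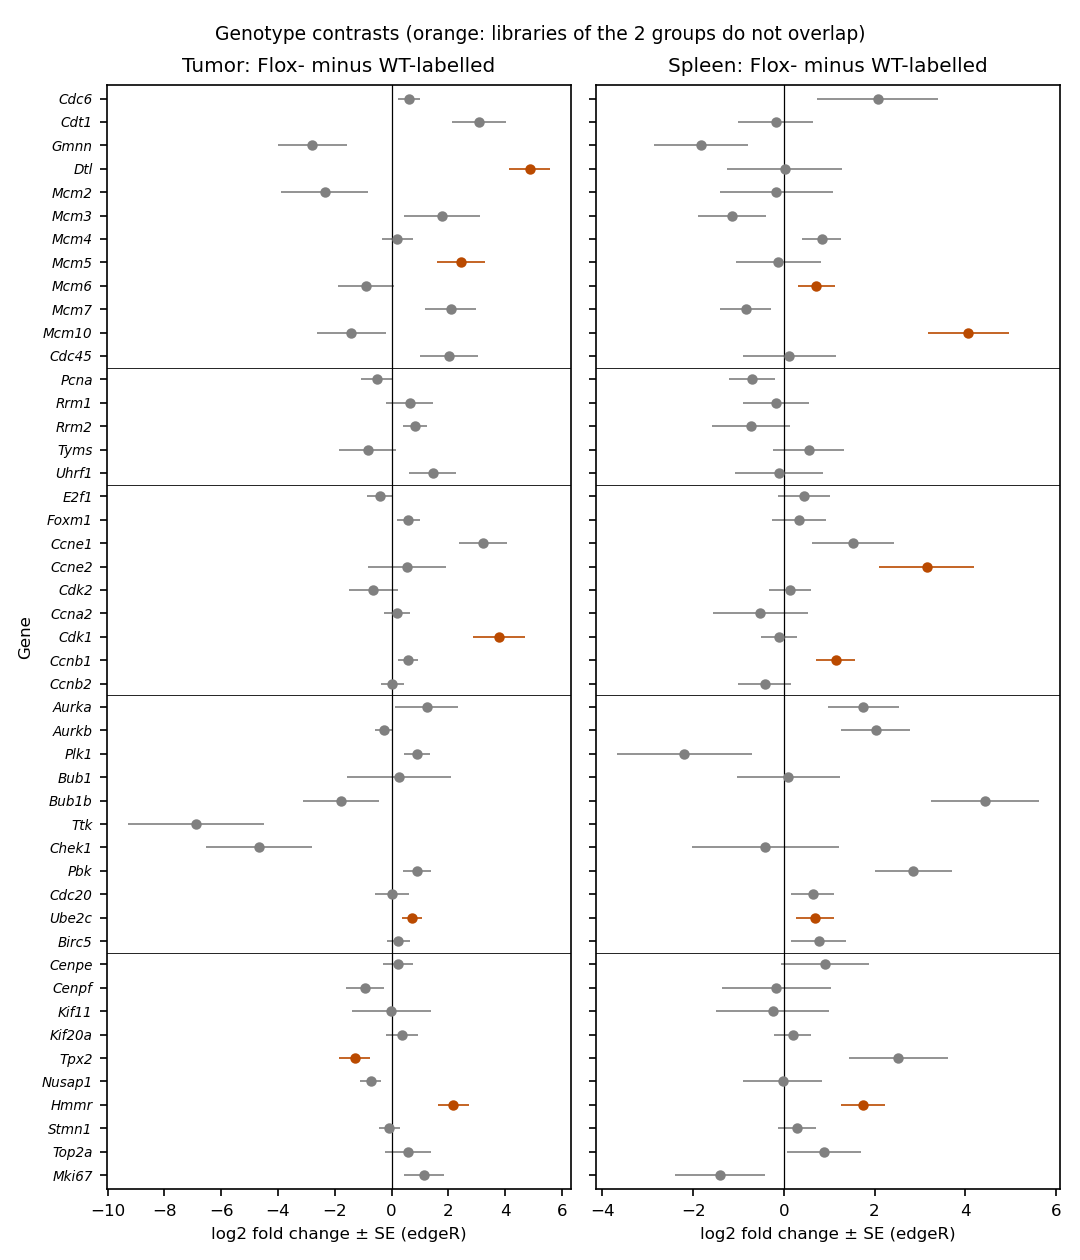
Log2 fold change ± SE (edgeR, horizontal axes of different scale) of Flox- minus WT-labelled libraries for the 47 genes in tumor and the 46 tested in spleen (vertical axis, by role), with genes whose libraries do not overlap in orange. In tumor 5 orange points lie above 0 and 1 below, in spleen all 6 lie above 0, and none of the genes passed the test.

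In the same tumor comparison the macrophage genes summed to 45.5 to 79.7 CPM in Flox-labelled and 12.8 to 167 CPM in WT-labelled libraries, with 5 of 8 tested members higher. Cd68 alone was 15.99 to 32.1 CPM in Flox and 1.35 to 4.36 CPM in WT. Their part in the differences named was not tested.

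In spleen, too, no gene passed between the labels. Of 46 genes tested 27 were higher and 19 lower in the Flox-labelled libraries, with a median log2 difference of 0.16, against 46.3% higher and a median of -0.06 over all 10935 genes. With edgeR 0 of 46 and 0% of all genes passed, with adjusted p from 0.674 to 0.998. At an unadjusted p under 0.05 there were 7 higher, against 4.25% of all genes, and 0 lower, against 2.61%. DESeq2 called 2 (Mcm10 and Bub1b, both higher, where 1.24% of all genes were called and 0.75% as higher) and limma voom 0. Libraries did not overlap for 6 genes, all higher in Flox (2.75% of all genes, with 3.14% lower), namely Mcm6, Mcm10, Ccne2, Ccnb1, Ube2c and Hmmr.

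Mcm10 led this comparison. It read 50.8, 114.4 and 35.6 CPM in Flox-labelled spleen and 2.05, 10.54, 1.68 and 1.504 CPM in WT-labelled spleen, with a log2 difference of 4.07 ± 0.90 (edgeR, adjusted p = 0.674). Every Flox-labelled library was at least 35.6 CPM, and the highest WT-labelled one, at 10.54 CPM, was replicate 2. Bub1b read 98.0, 154.7 and 3.94 CPM against 9.52, 2.19, 1.68 and 2.44 CPM (4.44 ± 1.18, adjusted p = 0.674), so Flox replicate 3 lay inside the WT range. Hmmr read 3.81, 10.3 and 6.28 CPM against 2.35, 1.56, 1.38 and 2.82 CPM, without overlap (1.75 ± 0.48, adjusted p = 0.674).

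Smaller levels followed the same direction. Cyclin E2 (Ccne2) read 8.92, 39.3 and 8.37 CPM in Flox and 0.312 to 6.01 CPM in WT (3.15 ± 1.06, edgeR, adjusted p = 0.674), and Ccnb1 read 4.71, 2.36 and 4.35 CPM against 1.09 to 2.25 CPM (1.14 ± 0.44, adjusted p = 0.674). Both came without overlap. Pbk differed by 2.86 ± 0.84, Tpx2 by 2.52 ± 1.09 and Aurkb by 2.02 ± 0.77 (each adjusted p = 0.674), and in these 3 genes 1 or 2 Flox-labelled libraries stood high and the rest lay in or near the WT range. For Aurkb that library was replicate 1 at 10.2 CPM, beside 1.62 and 1.51 CPM.

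Neither Mki67 nor Pcna was higher in Flox-labelled spleen. Mki67 read 34.8, 32.6 and 35.7 CPM in Flox, 3 nearly equal libraries, against 23.6, 19.4, 39.8 and 280.2 CPM in WT (-1.41 ± 1.00, edgeR, adjusted p = 0.762), and without Spleen WT replicate 4 the difference was 0.32. The differences of Pcna, Cdk1, Cdt1 and Mcm2 lay between -0.70 and -0.11, with adjusted p from 0.769 to 0.986. Those of Top2a (0.89 ± 0.81), Ccne1 (1.53 ± 0.90) and E2f1 (0.44 ± 0.56) were above 0, with adjusted p of 0.820, 0.719 and 0.876. The B cell genes summed to 234 to 340 CPM in Flox-labelled and 305 to 1719 CPM in WT-labelled spleen, with all 7 tested members lower in Flox, and their part was not tested.

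Whether the difference between the labels was itself different in tumor and spleen was tested as an interaction over all 14 libraries. Of the 47 genes 22 lay above 0 (a larger Flox minus WT difference in tumor) and 25 below, with a median of -0.34, against 50.6% above and a median of 0.02 over all 12008 genes tested. With edgeR 0 of 47 and 0% of all genes passed, at an unadjusted p under 0.05 there were 4 above (5.2% of all genes) and 5 below (5.59%), while DESeq2 called 5 (1.59%), 2 above (0.801%) and 3 below (0.791%), and limma voom 0. Cdk1 had the smallest p with a difference of 3.88 ± 1.00, followed by Mcm10 at -5.47 ± 1.61, Bub1b at -6.24 ± 1.97 and Dtl at 4.86 ± 1.58. All 4 had an adjusted p of 0.425, as did Tpx2 at -3.79 ± 1.30, Ttk at -6.68 ± 2.30 and Mcm7 at 2.94 ± 1.08. In spleen the Flox minus WT difference was 0.02 ± 1.27 for Dtl and -0.11 ± 0.39 for Cdk1. For Mki67 the interaction was 2.58 ± 1.26 (adjusted p = 0.483), for Cdt1 3.28 ± 1.31 and for Aurkb -2.26 ± 0.90 (both adjusted p = 0.431). Those of Ccne1, Ccnb1, Pbk, E2f1, Mcm2, Top2a and Pcna had adjusted p from 0.510 to 0.963.

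Other genes of the same pathways were examined as 4 lists. They held 32 replication genes, 38 mitotic genes, 14 G1 cyclins, kinases and E2F factors, and 23 inhibitors and quiescence genes. None passed between the labels in either tissue. At an unadjusted p under 0.05 edgeR gave 6 higher and 6 lower of 105 tested in tumor (5% and 3.08% of all genes), and 4 and 2 of 98 in spleen (4.25% and 2.61%). DESeq2 called 3 and 1 in tumor (2.16% and 1.75%) and 1 and 1 in spleen (0.75% and 0.49%). Most of these counts are near the background. In tumor the smallest p-values belonged to the origin subunit Orc6 (3.01 ± 0.71), the kinesin Kif18b (4.64 ± 1.18), the repressor E2f7 (4.93 ± 1.42) and the antiproliferative Btg1 (-0.65 ± 0.23), each with an adjusted p of 0.584. In spleen they belonged to Ckap2l, a spindle protein (1.61 ± 0.39), the separase gene Espl1 (6.09 ± 1.64), the kinase inhibitor Cdkn2c (2.32 ± 0.64) and the retinoblastoma gene Rb1 (-2.01 ± 0.56), each at 0.674.

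Between tumor and spleen some of these genes passed. Of 100 tested in WT-labelled libraries 6 rose and 2 fell, where 3.9% and 3.2% of all genes did. Of 103 in Flox-labelled libraries 2 rose and 3 fell, where 4.15% and 3.72% of all genes did. By this rule only the 6 that rose in WT are above the background. At an unadjusted p under 0.05 edgeR gave 27 higher and 7 lower in WT (13.6% and 13.3% of all genes), and 20 and 9 in Flox (13.4% and 13.7%). DESeq2 called 21 and 4 in WT (13.7% and 12.1%), and 20 and 10 in Flox (14.6% and 14.4%). By these looser rules the share called higher was above that of all genes under each label, and the share called lower was under it. Cdkn1a, which encodes the kinase inhibitor p21, read 181.0 to 430.1 CPM in WT-labelled tumor and 1.504 to 36.4 CPM in spleen, and rose by 4.44 ± 0.99 (edgeR, adjusted p = 0.0329). In Flox-labelled libraries it read 399.5 to 823 CPM against 5.596 to 10.1 CPM, and rose by 6.01 ± 0.57 (adjusted p = 0.0145). Every tumor library of Cdkn1a thus exceeded every spleen library by several-fold.

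The condensin subunit Ncaph was the other list gene that passed under both labels, by 3.39 ± 0.84 (edgeR, adjusted p = 0.0456) in WT and 4.38 ± 0.71 (adjusted p = 0.0225) in Flox. In WT-labelled libraries the G1 kinase Cdk6 (3.16 ± 0.49, adjusted p = 0.00939), the mitotic kinase Nek2 (2.81 ± 0.66, 0.0379), Cdkn2c (1.92 ± 0.44, 0.0361) and Btg1 (0.75 ± 0.18, 0.0376) also rose. The growth factor-responsive regulator Myc fell by 2.35 ± 0.50 (adjusted p = 0.0270) and Rb1 fell by 2.33 ± 0.56 (adjusted p = 0.0408). In Flox-labelled libraries the genes that fell were the origin subunit Orc2 (-2.51 ± 0.48, adjusted p = 0.0315), the condensin subunit Smc4 (-1.25 ± 0.23, 0.0279) and the transcription factor Foxo1 (-1.92 ± 0.43, 0.0474).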

How the data were processed

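Polyadenylated RNA of sorted Tregs was measured in 14 libraries of 4 groups taken from the sample labels. Per the labels' protocols, a Qiagen RNeasy Plus micro kit was used and GeneWiz prepared ultra-low input libraries. The values are raw gene counts, which the authors deposited as a single table without normalization. The submitters' processing notes name the build mm10. The aligner, counter, annotation and strand setting are not stated in the labels or file headers, so reads of the 12 members that overlap another counted gene and the 3 with a named copy (Ccnb1, Stmn1, Tyms) could be shared. Of the gene IDs, 25275 matched RefSeq (GRCm38.p6), and unmatched rows held 1.25 to 1.95% of counts.

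The quasi-likelihood test of edgeR 4.0.16 was run on the deposited counts in R 4.3.3 (TMM, filterByExpr by group), with only the libraries of the contrast in each fit and all 14 for the difference between tissues. P-values were adjusted by Benjamini-Hochberg over all genes tested (threshold 0.05). The SE is the absolute log2 fold change divided by the square root of F. CPM use TMM factors over all 14 libraries. Scripts were tested on simulated data. Between labels in tumor 0% of 8-fold and 2% of 16-fold changes were recovered there, and in spleen 20% and 36%, with 3 false calls. Between tissues 0% of 8-fold and 6% of 16-fold changes were recovered under each label, and for the interaction 0% of either. A gene that did not pass may therefore still differ. The simulated data held 50 changed genes of each fold size, among 10249 (WT) and 10508 (Flox) genes between tissues. In the measured tissue comparisons 750 and 847 genes passed. The adjustment differs with that number, so these recovery rates may not describe the tissue tests. The members and lists were chosen with earlier results of these data known. Named in each comparison are 12 members chosen for their roles (Mki67, Top2a, Pcna, Cdk1, Ccnb1, Ccne1, Cdt1, Mcm2, Mcm10, Bub1b, Pbk, E2f1), those past the threshold, and those with the smallest p up to 8. Ube2c, Cdc6, Birc5 and Mcm6 are named because their counts are small sets. Alternatives were DESeq2 1.42.0, limma 3.58.1 voom with quality weights, RLE factors, no filter, 1 fit of all 14 libraries, a block for the replicate number, both WT replicate 2 libraries left out, library totals alone (added after the data were seen) and each library left out in turn. No 2 libraries of a group agreed within sampling noise (chi-square over its degrees of freedom from 92.1 to 391). Plots used Python 3.11.15 and matplotlib 3.10.9.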

Additional observations from a re-analysis of the deposited data

Results flagged for a closer look

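Dixon's criterion for 1 library far from the other 3 was applied to the WT-labelled groups of 4, over 64 values of named genes and role sums, and 5 met it. Chance alone marks about 1 in 20. In Spleen WT replicate 2 Mcm10 read 10.54 CPM, where the remaining 3 libraries held 1.504 to 2.05 CPM. Bub1b read 71.7 CPM in TIL WT replicate 4, beside 2.25 to 3.71 CPM. Mcm5 read 161.8 CPM in TIL WT replicate 2, beside 25.4 to 31.9 CPM. The summed level of the 5 DNA synthesis genes was 317.7 CPM in TIL WT replicate 2, beside 199.1 to 213.7 CPM, and that of the 10 spindle and chromosome genes was 279.6 CPM in TIL WT replicate 1, below the 797.8 to 961.4 CPM of the others. Of these 5 values, 3 belong to replicate 2 libraries, which hold both Xist and Ddx3y reads.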

How the results depend on the processing

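Counts of members past the threshold depended on the tool. DESeq2 called 7 in tumor and 2 in spleen between the labels, 14 and 15 between the tissues (WT, Flox) and 5 for the interaction. For WT tumor against spleen, where edgeR called 3, limma voom and all 14 libraries in 1 fit called 5 each, leaving out both WT replicate 2 libraries 1, no filter 0. For Flox tumor against spleen, where edgeR called 2, no filter called 1. The replicate number as a block called 0 in both. Same-numbered libraries correlated between -0.03 and 0.054, under a limit of 0.1 set for this check, so the numbers were not taken as pairs. Both WT replicate 2 libraries hold Xist and Ddx3y together, yet they correlated at -0.021. The check therefore cannot tell whether same-numbered libraries share a mouse. Each library left out in turn gave 0 to 4 calls in the WT tissue comparison, 0 to 2 in the Flox one and 0 elsewhere. The median log2 difference then ran from 0.02 to 0.51 between labels in tumor, 0.13 to 0.63 in spleen, 0.69 to 1.16 and 0.58 to 1.13 between tissues (WT, Flox) and -0.59 to 0.06 for the interaction. It was 0.64 with voom and 0.76 with the block in spleen, and 0.54 with library totals for the WT tissue comparison.

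Signs turned for genes that did not pass. Between labels in tumor the block gave 0.24 for Mcm2 and 0.78 for Bub1b. In spleen voom gave 0.047 for Cdt1 and 0.90 for Mcm2, the block 0.39 for Mki67, 0.10 for Cdk1 and 0.18 for Mcm2, and leaving out the WT replicate 2 libraries 0.48 for Cdt1 and 1.96 for Mcm2. For WT tumor against spleen Mki67 was -0.041 with no filter, -0.34 with library totals and -0.24 without the WT replicate 2 libraries, and Pcna -0.16 with library totals. For Flox tumor against spleen Ccne1 was -0.38 with voom, -0.18 with the block and -0.20 with library totals. The interaction of Top2a was 0.23 without the WT replicate 2 libraries. With 1 library left out, ranges crossed 0 for Bub1b (-2.16 to 0.91) and Top2a (-0.12 to 1.01) between labels in tumor, and for Cdk1 (-0.26 to 0.095), Cdt1 (-0.68 to 0.48), Mcm2 (-1.66 to 1.96) and Mki67 (-1.77 to 0.32) in spleen. They also crossed 0 for Mki67 (-0.30 to 1.75), Pcna (-0.0004 to 0.46) and Bub1b (-0.35 to 3.21) between WT tissues, for Ccne1 (-0.46 to 0.64) between Flox tissues, and in the interaction for Mcm2 (-4.33 to 0.065), Pcna (-0.037 to 0.48) and Top2a (-1.32 to 0.15). The cause was not tested. The depth of 4859099 to 10333892 counts leaves members of 1 to 5 CPM with few counts each.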
